A study of Mus musculus with 6 samples.

Results

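The genes described here were angiotensinogen (Agt) and 6 further genes of the renin-angiotensin system of the brain, Ace, Mas1, Agtr1a, Enpep, Lnpep and Rnpep. They were chosen by symbol, through the Ensembl identifier of each row, and all 7 were among the 21006 genes of the mRNA data. Agt is a gene that the study picked as a hub on these same samples, so its difference below is not independent evidence of its direction. The samples were prefrontal cortex of wild type male C57BL/6 mice, aged 18 months by their age label, while the sample titles carry the code 17M. PND stands for postoperative neurocognitive disorder, and in this model of it 3 mice breathed 1.5% isoflurane for 30 min and then had an exploratory laparotomy, in which the abdomen is opened and its organs are inspected, under further isoflurane. Their incisions were treated with lidocaine cream and povidone iodine. The CON group comprised 3 mice with neither anesthesia nor operation, so the effects of the anesthetic, the incision and the wound care cannot be told apart. Mice of both groups went through behavioral tests, were killed under deep isoflurane anesthesia after a Barnes maze session, and were perfused with saline. Apart from the sequencing, the study reports significantly higher Agt in PND by qRT-PCR, on prefrontal cortex kept from the other mice. That measurement is not among the values used here.

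In the renin-angiotensin system the secreted precursor angiotensinogen is cut by renin to angiotensin I, which angiotensin-converting enzyme (Ace) turns into angiotensin II. Aminopeptidases then trim angiotensin II step by step to angiotensin III and IV, while other peptidases make a shorter peptide that acts through the Mas receptor. The brain makes its own angiotensinogen, mainly in astrocytes, and the system is best known there for thirst, blood pressure control and the release of vasopressin.

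Levels were given as FPKM, fragments per kilobase of exon scaled to the mapped total, which are divided by gene length and can be compared between genes. PND was compared with CON by limma on log2(FPKM + 0.1) over the 18185 genes that averaged 0.1 FPKM or more, and all 7 genes passed this filter. The cut-off was that of the study, an absolute log2 fold change above 1 with an unadjusted p below 0.05, and p-values were adjusted by the Benjamini-Hochberg method across the 18185 genes. The adjusted p was 0.9999 for each of the 7 genes and for every other tested gene named here except Sgk1 and Sparc. The cut-off was passed by 153 genes that were higher in PND (0.841% of those tested) and by 88 that were lower (0.484%). Of the 7 genes, 1 passed it, Agt, which was higher in PND. Agt was also the 1 gene of the 7 with an unadjusted p below 0.05, against 3.13% of all genes tested. In 2 of the 7, Agt and Mas1, every PND sample lay above every CON sample, which held for 3.78% of all genes tested. In 0 of the 7 did every PND sample lie below every CON sample, against 3.88% of all genes tested. The median log2 fold change was 0.10 over the 7 genes and 0.012 over all genes tested.

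The 250 bases before the annotated transcription start were read for Agt and Mas1, since these were the genes whose groups did not overlap. The sequences come from RefSeq on GRCm38.p6 and are printed 5′ to 3′ on the strand of the gene, which is the minus strand for both. Capitals mark the letters TATAAA, the core of the TATA box. The Agt window lies at chr8:124569707-124569956 and the Mas1 window at chr17:12868144-12868393.
Agt: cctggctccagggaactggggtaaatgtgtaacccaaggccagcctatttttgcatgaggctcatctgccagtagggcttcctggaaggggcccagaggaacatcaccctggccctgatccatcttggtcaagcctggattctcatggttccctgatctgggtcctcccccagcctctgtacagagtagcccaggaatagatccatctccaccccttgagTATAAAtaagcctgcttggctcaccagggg
Mas1: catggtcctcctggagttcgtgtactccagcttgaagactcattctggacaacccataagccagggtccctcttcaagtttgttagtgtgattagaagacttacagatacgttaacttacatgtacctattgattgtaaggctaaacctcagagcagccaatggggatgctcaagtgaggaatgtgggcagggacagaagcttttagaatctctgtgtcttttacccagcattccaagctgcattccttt

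In the Agt window TATAAA began 30 bases before the start. Searched on both strands, the letters occurred in 12.4% of the 32851 windows of the table, among them also a window each of Ace and Enpep, and were not in the Mas1 window. CpG dinucleotides, which are dense in the promoters of most housekeeping genes, numbered 0 for Agt and 2 for Mas1, and 29.0% of all windows held at most 2. By contrast the window of Lnpep held 25, where 17.9% of all windows held at least 20. Enpep had 6 and Rnpep 7, near the median of 6 over all windows, and the 2 windows of Ace had 19 and 1.

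Agt lies on the minus strand of chromosome 8 from 124556534 to 124569706 (GRCm38, GENCODE M21), with no exon shared with another gene. Its level was 1.73, 1.47 and 2.37 FPKM in PND replicates 1 to 3 and 0.564, 0.714 and 0.956 FPKM in CON replicates 1 to 3. The lowest PND sample was thus higher than the highest CON sample. The means were 1.86 ± 0.46 FPKM in PND against 0.745 ± 0.197 FPKM in CON (SD, n = 3 each), a ratio of 2.49. In the limma fit Agt rose by a log2 fold change of 1.21 (SE 0.29, 95% interval 0.54 to 1.88), past the study's cut-off. It did not pass adjustment over all genes (adjusted p = 0.9999, limma, Benjamini-Hochberg), which 2 genes in all did at 0.05. When each sample was left out in turn the log2 fold change lay between 1.03 and 1.39. With 1 FPKM added before the logarithm in place of 0.1 it was 0.71 and no longer past the cut-off.

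These levels rest on few fragments. At the depth estimated from the steps in low values (7191893 to 9386840 fragments per sample), Agt corresponded to 29, 22 and 42 fragments in PND and to 8, 11 and 13 in CON. The ratio of 93 to 32 fragments, scaled by depth, was 2.54 with a 95% exact interval of 1.68 to 3.92. Sample by sample the 95% counting intervals overlapped in part, as that of PND replicate 2 ran from 0.922 to 2.23 FPKM and that of CON replicate 3 from 0.509 to 1.63 FPKM. Such intervals cover counting error only.

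**Figure D1:**
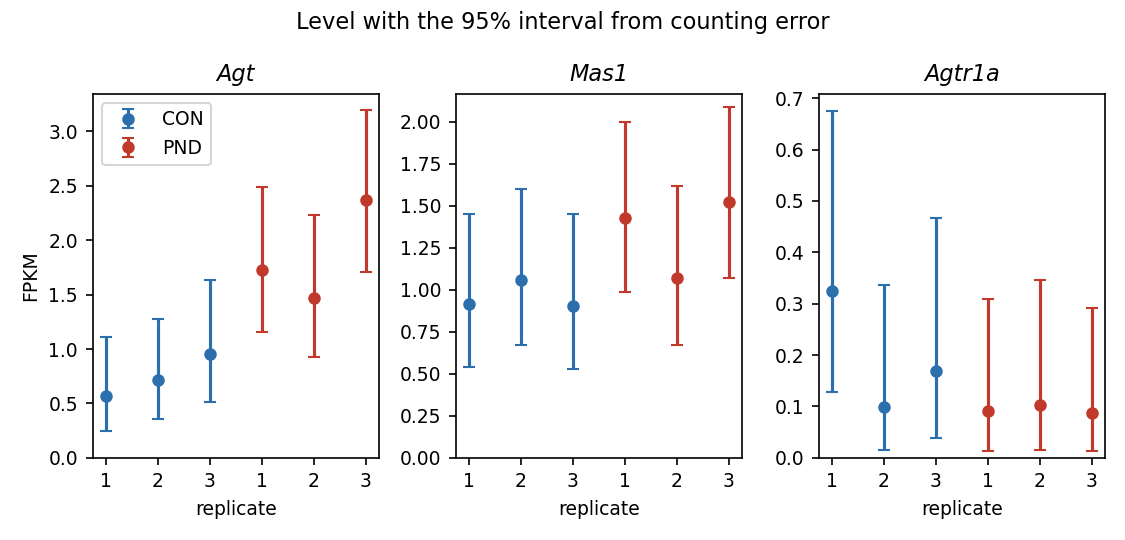
FPKM of Agt, Mas1 and Agtr1a (vertical axis, linear, its range differing by panel) in each replicate of CON (blue) and PND (red), with bars for the 95% interval from counting error. The 3 PND points of Agt lie at 1.47 to 2.37 FPKM, above the CON points at 0.564 to 0.956 FPKM, and the intervals of Agtr1a overlap throughout.

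By group means Agt stood higher in the order of the 7 genes in PND than in CON, which restates the same levels. In PND its mean followed those of Lnpep and Rnpep, and in CON it also came after those of Ace and Mas1. By sample Agt ranked 4, 3 and 2 in PND replicates 1 to 3 and 6, 5 and 4 in CON replicates 1 to 3. Both groups thus held rank 4. Among all genes of a sample it stood at the 49.5th to 55.4th percentile in PND and at the 34.9th to 41.2nd percentile in CON.

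In bulk tissue, fewer cells of a type and less RNA per cell cannot be told apart, so the level of Agt was set beside 15 markers of astrocytes. Of these, 10 were higher and 5 lower in PND, with a median log2 fold change of 0.06, and 0 passed the cut-off (limma). Their summed level ran from 813 to 998 FPKM in PND and from 764 to 980 FPKM in CON, which overlap. Of the 15, 3 had an unadjusted p below 0.05, and they did not move in the same direction. Gfap, the filament protein of reactive astrocytes, was 22.9, 17.7 and 24.7 FPKM in PND and 13.0, 14.9 and 13.0 FPKM in CON (log2 fold change 0.66, 95% interval 0.31 to 1.02 in limma). Gjb6, a gap junction protein, also had a positive log2 fold change of 0.43 (95% interval 0.03 to 0.83), while that of Aqp4, the water channel of astrocyte end feet, was -0.36 (95% interval -0.67 to -0.05). Slc1a3, a glutamate transporter, had 62.9 ± 1.76 FPKM in PND against 61.1 ± 5.89 FPKM in CON, and Aldh1l1, an enzyme of folate metabolism, had 4.37 ± 0.853 and 3.62 ± 1.03 FPKM (SD, n = 3 each).

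With the mean log2(FPKM + 0.1) of the 15 markers subtracted, Agt was at -3.55, -3.77 and -3.31 in PND and at -4.66, -4.89 and -4.30 in CON. The groups did not overlap on this scale either. The difference was 1.07, against 1.21 before subtraction, with p = 0.1 in a two-sided exact permutation test over 20 assignments. This is the smallest p that 3 samples against 3 can give.

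**Figure D2:**
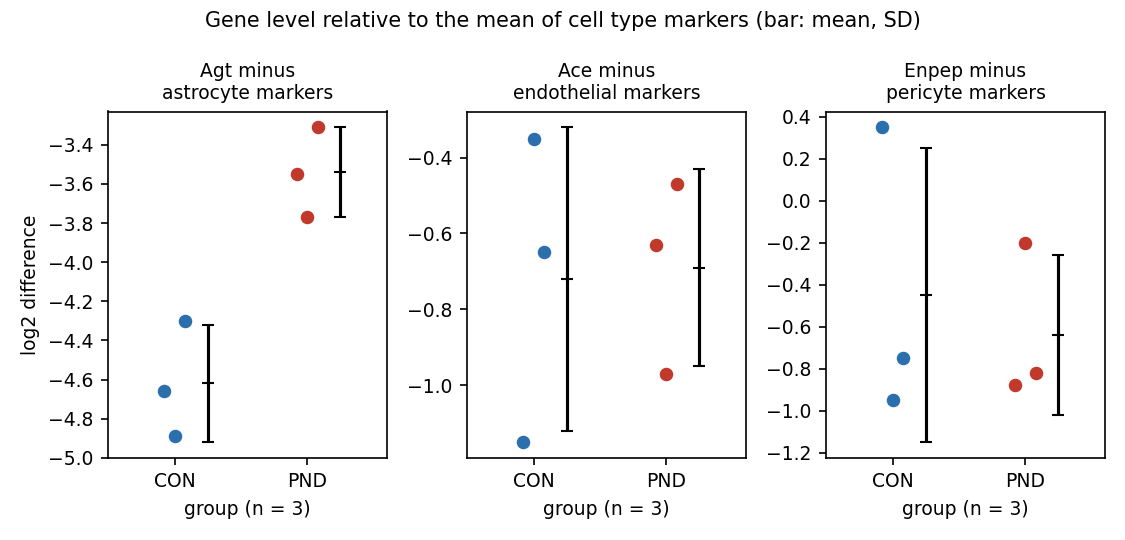
Log2 level of Agt, Ace and Enpep minus the mean log2 level of the markers of astrocytes, endothelium and pericytes (vertical axis, range differing by panel) in CON (blue) and PND (red), with points for samples and bars for the mean and SD of 3. The PND points of Agt lie between -3.77 and -3.31 and the CON points between -4.89 and -4.30, while the groups of Ace and Enpep overlap.

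Ace encodes the peptidase that makes angiotensin II and lies on endothelium and choroid plexus. The gene is on the plus strand of chromosome 11 from 105967945 to 105989964. It had 1.75, 1.03 and 1.79 FPKM in PND and 0.689, 1.97 and 1.37 FPKM in CON. The highest and the lowest of the 6 values were both CON samples, so the groups overlapped in full. The means were 1.52 ± 0.431 and 1.35 ± 0.643 FPKM (SD, n = 3 each). Its log2 fold change was 0.24 (SE 0.40, 95% interval -0.70 to 1.17 in limma), an interval that holds the 2-fold change of the cut-off. Without CON replicate 1 the value was -0.15. Ace shares 295 exon bases with an antisense gene, Gm11651, and the use of strand in counting is not given in the sources used here.

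The level of Ace varied together with the base composition of the libraries. In the tenth of genes with the highest GC content, the median deviation of log2 level from each gene's own mean was -0.56 in CON replicate 1 and 0.49 in CON replicate 2, the CON samples with the lowest and the highest Ace. It was -0.30 in PND replicate 2, the PND sample with the lowest Ace, and 0.11 and 0.37 in PND replicates 1 and 3. Within PND the order of Agt was the same as that of this deviation. Within CON, Agt was lowest in replicate 1 as well, but was higher in replicate 3 (0.956 FPKM, deviation -0.03) than in replicate 2 (0.714 FPKM). With a GC correction the log2 fold change was 0.17 for Ace, against 0.24 without it, and 1.14 for Agt, against 1.21.

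The 15 markers of endothelium had a median log2 fold change of 0.18, with 9 higher and 6 lower in PND, and their summed level was 52.3 to 65.4 FPKM in PND and 43.8 to 54.6 FPKM in CON. None passed the cut-off (limma) and 1 had an unadjusted p below 0.05, Ly6c1, a surface protein of endothelial cells (log2 fold change 0.79, 95% interval 0.31 to 1.28). Cldn5, which seals the junctions of the blood-brain barrier, had a mean of 1.39 ± 0.95 FPKM in CON and a log2 fold change of 0.31 (95% interval -0.91 to 1.54). Relative to the mean of these markers the difference of Ace was 0.02 (p = 0.9, two-sided exact permutation test). Of 15 choroid plexus markers 7 could be tested, and their median log2 fold change was 0.34. The summed level of this list was 3.94 to 4.58 FPKM in PND and 2.29 to 3.87 FPKM in CON. Its defining markers were at or near 0, with Ttr, the abundant transthyretin of that tissue, at most 0.207 FPKM and Folr1, its folate receptor, at most 0.0545 FPKM. Sostdc1, a secreted antagonist of Wnt and BMP signals, rose past the cut-off from a mean of 0.0519 to 0.284 FPKM (log2 fold change 1.38, 95% interval 0.41 to 2.36 in limma), but was at 0.29 and not past it with a pseudocount of 1. Clic6, a chloride channel family protein, had a log2 fold change of 0.80 (95% interval 0.09 to 1.51).

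Mas1 encodes the Mas receptor of the alternative arm of the system and is expressed in neurons. It lies on the minus strand of chromosome 17 from 12841079 to 12868143. It had 1.43, 1.07 and 1.52 FPKM in PND and 0.915, 1.06 and 0.903 FPKM in CON. All PND samples lay above all CON samples, but PND replicate 2 and CON replicate 2 nearly met. The means were 1.34 ± 0.236 and 0.96 ± 0.089 FPKM (SD, n = 3 each), a ratio of 1.40. The log2 fold change was 0.43 (SE 0.24, 95% interval -0.12 to 0.98 in limma) and did not pass the test. The ratio of 92 to 58 fragments scaled by depth was 1.39, with a 95% interval of 0.987 to 1.96 from counting error.

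Agtr1a encodes the main angiotensin II receptor of the rodent brain, AT1a. It lies on the plus strand of chromosome 13 from 30336441 to 30382867 and had the lowest level of the 7 genes in every sample. It had 0.0917, 0.103 and 0.0864 FPKM in PND and 0.325, 0.0995 and 0.169 FPKM in CON. CON replicate 1 was the highest sample, and CON replicate 2 lay within the PND range. These levels corresponded to 2 fragments in each PND sample and to 6, 2 and 3 fragments in CON. The ratio of 6 to 11 fragments scaled by depth was 0.476 with a 95% interval of 0.145 to 1.41, so a difference was not detectable at this depth. The log2 fold change was -0.55 (SE 0.43, 95% interval -1.57 to 0.46 in limma). Without CON replicate 1 it was -0.26, and with a pseudocount of 1 it was -0.13. Over 1134 bases its transcript was 90.2% identical to that of Agtr1b, the other AT1 gene of rodents, so fragments could have been divided between them. Agtr1b itself had a mean of 0.044 FPKM and was below the filter.

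**Figure D3:**
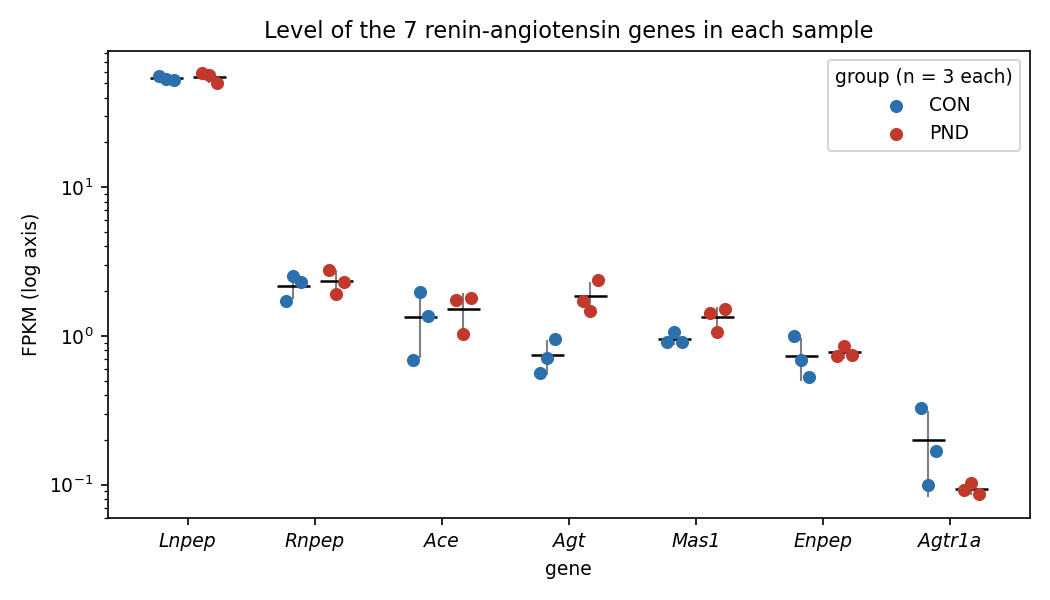
FPKM of the 7 renin-angiotensin genes (vertical axis, logarithmic) in each sample of CON (blue) and PND (red), ordered by mean level, with horizontal bars for the mean and vertical lines for the SD of 3 samples. Lnpep lies near 55 FPKM in both groups, Agtr1a lies lowest, and Agt is the gene whose groups stand clearly apart.

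Of the aminopeptidases, Enpep encodes aminopeptidase A, which makes angiotensin III from angiotensin II and lies on pericytes. The gene is on the minus strand of chromosome 3 from 129269175 to 129332720. It had 0.729, 0.857 and 0.739 FPKM in PND and 0.992, 0.690 and 0.529 FPKM in CON. The PND values lay within the CON range. The log2 fold change was 0.10 (SE 0.29, 95% interval -0.59 to 0.79 in limma), and without CON replicate 3 it was -0.09. The 14 tested markers of pericytes and smooth muscle had a median log2 fold change of 0.17, with summed levels of 43.7 to 50.8 FPKM in PND and 38.1 to 55.7 FPKM in CON. Of its defining markers, Pdgfrb, the growth factor receptor of pericytes, had a log2 fold change of -0.04 (95% interval -0.91 to 0.83) and Rgs5, a regulator of G protein signals, had -0.05 (95% interval -0.35 to 0.26). Higd1b rose past the cut-off, from a mean of 0.235 to 0.796 FPKM (log2 fold change 1.71, 95% interval 0.22 to 3.19 in limma), but this call was lost under 5 alternatives. These were leaving out PND replicate 1 (1.74), PND replicate 2 (1.50) or CON replicate 3 (0.99), and a pseudocount of 0.01 (2.88) or 1 (0.55). Relative to the mean of these markers the difference of Enpep was -0.19 (p = 0.7, two-sided exact permutation test), and it was 0.21 without CON replicate 1.

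Rnpep encodes aminopeptidase B, which removes basic residues and can trim angiotensin III. It lies on the minus strand of chromosome 1 from 135262712 to 135284084. It had 2.78, 1.91 and 2.32 FPKM in PND and 1.72, 2.52 and 2.30 FPKM in CON. The groups overlapped, and the lowest value of each group came from the sample in which the genes of high GC content were lowest. The log2 fold change was 0.10 (SE 0.23, 95% interval -0.44 to 0.63 in limma), with a value of 0.02 under the GC correction, -0.03 without PND replicate 1 and -0.06 without CON replicate 1. Rnpep shares 368 exon bases with the antisense gene Gm26642.

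Lnpep encodes the insulin-regulated aminopeptidase, a membrane protein of intracellular vesicles that binds angiotensin IV. It lies on the minus strand of chromosome 17 from 17521410 to 17625050. It had 58.8, 56.6 and 50.1 FPKM in PND and 56.2, 53.2 and 53.0 FPKM in CON, which put it at the 97.8th to 98.4th percentile of all genes of a sample. The highest and the lowest value were both PND samples. The log2 fold change was 0.02 (SE 0.10, 95% interval -0.21 to 0.26 in limma). Its interval was the narrowest of the 7 genes and excluded a 2-fold change, as did, on this scale, those of Enpep, Rnpep and Mas1. Without PND replicate 1 the log2 fold change of Lnpep was -0.02.

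In PND the order of the mean levels was Lnpep, Rnpep, Agt, Ace, Mas1, Enpep and Agtr1a. The ranges of neighbours overlapped for Rnpep and Agt, for Agt and Ace, and for Ace and Mas1, and were apart elsewhere. In CON the order was Lnpep, Rnpep, Ace, Mas1, Agt, Enpep and Agtr1a. There the ranges were apart only between Lnpep and Rnpep and between Enpep and Agtr1a.

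A list of 22 other renin-angiotensin genes was set beside the 7. The data held 15 of them and 13 could be tested, of which 7 were higher and 6 lower in PND. None passed the cut-off and 0 had an unadjusted p below 0.05 (limma), against 0.841% and 0.484% of all genes past the cut-off in either direction and 3.13% below 0.05. Their median log2 fold change was 0.01. The renin genes Ren1 and Ren2, of the enzyme that cuts angiotensinogen, were not analysed here. Atp6ap2, the prorenin receptor and a proton pump subunit, had the highest level with 54.2 ± 4.63 FPKM in PND against 56.6 ± 2.09 FPKM in CON (SD, n = 3 each, log2 fold change -0.06, 95% interval -0.30 to 0.17).

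None of the peptidases that cut angiotensin I or II to shorter peptides passed the test. Nln, neurolysin, had 10.1 ± 0.693 and 9.22 ± 1.13 FPKM (log2 fold change 0.13, 95% interval -0.19 to 0.45) and Prep, prolyl endopeptidase, had 8.69 ± 1.04 and 8.26 ± 0.482 FPKM (0.07, 95% interval -0.26 to 0.39). For Mme, which is neprilysin, the log2 fold change was -0.01 (95% interval -0.61 to 0.59), and for Thop1, thimet oligopeptidase, it was -0.09 (95% interval -0.79 to 0.62). The carboxypeptidases Ctsa and Prcp had log2 fold changes of 0.14 and 0.08, and Dpp3, a dipeptidyl peptidase, had -0.21 (95% interval -1.10 to 0.67), all from limma. Agtrap, which binds the AT1 receptor and takes it from the surface, had 1.51 ± 0.237 FPKM in PND against 2.05 ± 0.694 FPKM in CON (log2 fold change -0.38, 95% interval -1.04 to 0.27).

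Agtr2, which encodes the AT2 receptor, was low, with 0.428 ± 0.231 FPKM in PND against 0.399 ± 0.149 FPKM in CON (SD, n = 3 each). The 95% interval of its log2 fold change ran from -1.05 to 1.08 in limma and holds a 2-fold change. Agtr2 was named with its values known.

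**Figure D4:**
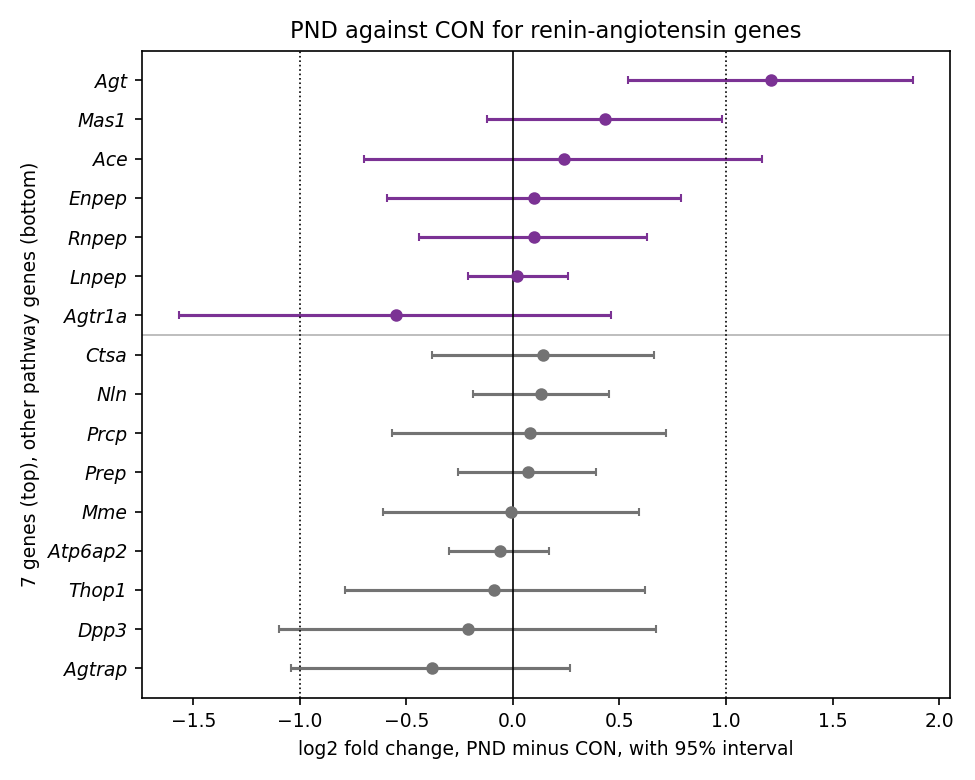
Log2 fold change of PND against CON (horizontal axis) with its 95% interval from limma for the 7 genes (purple, top) and for the other renin-angiotensin genes that averaged 1 FPKM or more (grey, bottom), with dotted lines at the cut-off of 1 and -1. Agt, at 1.21, is the gene whose interval lies above 0, and the intervals of all others shown hold 0.

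All 27 listed partners of AT1 receptor signalling (G proteins, arrestins, NADPH oxidase and the like) were tested, with 13 higher and 14 lower in PND and a median log2 fold change of -0.03. Here too 0 passed the cut-off and 0 had an unadjusted p below 0.05 (limma).

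Of 15 transcription factors known to act on the Agt gene 13 were tested, with 4 higher and 9 lower and a median log2 fold change of -0.07. None passed the cut-off (limma). An unadjusted p below 0.05 was found for 1, Nr3c1, the glucocorticoid receptor. It had 7.18, 7.60 and 7.09 FPKM in PND and 8.38, 9.78 and 15.8 FPKM in CON, with every PND sample below every CON sample. CON replicate 3 stood apart from the other CON samples. The log2 fold change was -0.58 (SE 0.23, 95% interval -1.12 to -0.04 in limma) with all samples. Without CON replicate 3 it was -0.31. The unadjusted p was above 0.05 in that fit, without each of the PND replicates, with the replicate block, with the GC correction, with both together and without the intensity trend. Jun, a subunit of AP-1, also had no overlap, with 6.56, 7.65 and 7.62 FPKM in PND and 11.5, 7.93 and 9.15 FPKM in CON (log2 fold change -0.37, 95% interval -0.77 to 0.02 in limma), and was named after its values were seen.

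The 5 genes whose log2 level was most like that of Agt over the 6 samples, by Pearson's r among the 12322 genes with a symbol that averaged 1 FPKM or more, were Scaf8 (r = 0.992), Sparc (0.986), Bccip (0.985), Gm39041 (0.981) and Sgk1 (0.973). These are descriptions over 6 samples that share their libraries, and the difference between the groups is part of each value. Sgk1, a kinase whose gene responds to glucocorticoids, had 7.85, 7.16 and 9.75 FPKM in PND and 4.13, 3.80 and 4.63 FPKM in CON (log2 fold change 0.95, adjusted p = 0.624 by limma with Benjamini-Hochberg). Sparc, a secreted matrix glycoprotein, had 23.3 ± 1.30 and 15.4 ± 1.74 FPKM (SD, n = 3 each, log2 fold change 0.60, adjusted p = 0.787). In both genes the groups did not overlap, and neither passed the cut-off. Among the 7, Mas1 had the highest r with Agt (0.86) and Agtr1a the lowest (-0.74).

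The labelled tissue was checked against markers of regions. The transcription factor Neurod6 and the vesicular glutamate transporter Slc17a7 of cortical excitatory neurons were present in all samples, the latter at 23.6 to 73.8 FPKM. Markers of striatum were present as well, with Drd1, the D1 dopamine receptor, at 10.8 to 25.4 FPKM and Ppp1r1b, a phosphatase inhibitor of dopamine signalling, at 6.05 to 15.3 FPKM. The summed level of 15 striatal markers was 283 to 349 FPKM in PND and 196 to 430 FPKM in CON, and its part in the levels of the 7 genes was not tested. Of these markers 14 were higher and 1 lower in PND, 0 passed the cut-off (limma), and 1 had an unadjusted p below 0.05, the phosphodiesterase Pde10a (log2 fold change 0.62, 95% interval 0.09 to 1.16).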

How the data were processed

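The 6 samples were grouped by their treatment labels, with 3 mice per group, so p-values measure the spread between these mice. The deposited values were FPKM per Ensembl gene. According to the methods the authors removed ribosomal RNA, aligned reads with HISAT2, counted fragments with StringTie and scaled them by TMM. The build, annotation and use of strand for these values are not given in the sources used here; the submitters' processing notes list Bowtie 0.12.2, mm8 and mm9 without a role.

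The fit used limma 3.58.1 in R 4.3.3 (lmFit, eBayes with trend) on log2(FPKM + 0.1). Fragments were simulated with 200 genes changed 4-fold, all drawn from genes that averaged 1 FPKM or more. Of these, 200 were recovered in the right direction, and 223 unchanged genes also passed the cut-off, with 18032 genes tested in all. The simulation used 1 dispersion (0.02) for every gene and no difference in base composition between libraries. It therefore does not show recovery for smaller changes or for genes as low as Agtr1a and Enpep. Fold changes on this scale understate those of low genes. Depth was estimated from steps in low values, of which 41.1% to 44.7% lay within 0.05 of a whole fragment, so fragment numbers are estimates, and why the other values were not whole was not tested. Across samples the sum of FPKM was 215640 to 240447, the 13 mitochondrial genes took 30.4% to 38.8%, and 0 of 15 pairs were identical.

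The genes and lists were chosen with earlier results of these data known. Named were the 7 genes, genes of the pathway lists with p below 0.05 or, for other renin-angiotensin genes, a mean of at least 1 FPKM, defining and p below 0.05 markers of cell type lists, and the 5 genes most like Agt. Some genes that this rule names are not reported here. Same-numbered samples did not deviate together (correlations -0.049, -0.451 and 0.027). Alternatives were other pseudocounts, filters, scalings, a GC correction, a fit without trend, voom on estimated fragments, a replicate block and leaving out each sample.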

Additional observations from a re-analysis of the deposited data

How the results depend on the processing

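Agt was higher in PND under all 18 alternatives, with an unadjusted p below 0.05 in each and adjusted p-values from 0.686 to 0.99999 (limma, Benjamini-Hochberg). With a pseudocount of 1 its log2 fold change was 0.71, so that 0 of the 7 genes and 25 genes in all passed the cut-off, against 241 with a pseudocount of 0.1. This follows from the larger pseudocount, which shrinks the fold changes of low genes. With a minimum mean of 1 FPKM 59 genes passed, and Agtr1a and Enpep were not tested. Leaving out 1 sample gave 235 to 388 genes past the cut-off, with 388 without CON replicate 2, 1 to 1 of the 7 genes, and 1.03 to 1.39 for Agt. In these fits Ace ranged from -0.15 to 0.55, Enpep from -0.09 to 0.31, Lnpep from -0.02 to 0.09 and Rnpep from -0.06 to 0.23, so none of these kept a direction, while Agtr1a ranged from -0.81 to -0.26 and Mas1 from 0.34 to 0.57. Relative to endothelial markers Ace ranged from -0.19 to 0.21, with -0.01 for a pseudocount of 1, and relative to pericyte markers Enpep ranged from -0.43 to 0.21. With the replicate block Agt was 1.21 and 226 genes passed the cut-off, and with a GC correction Agt was 1.14. The 3 pathway lists had 0 genes past the cut-off under every alternative. Of the genes named for an unadjusted p below 0.05, Aqp4, Gjb6, Clic6, Pde10a, Opalin, Higd1b and Nr3c1 were no longer below it when at least 1 of the samples was left out. With all samples kept, the same loss was seen with the replicate block for Nr3c1, Gjb6, Pde10a and Opalin, with the GC correction for Nr3c1 and Aqp4, with both together for Nr3c1, Aqp4, Gjb6, Pde10a and Opalin, without the intensity trend for Nr3c1, Aqp4, Gjb6 and Pde10a, and with a pseudocount of 0.01 for Higd1b.

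Depth limits the low genes most. Agtr1a stood at 2 to 6 fragments per sample, and 5 of the 6 samples were at or under the floor of 3 fragments.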

Other observations

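Markers of the remaining cell types were split in direction, and 0 of them passed the cut-off (limma). Of 12 markers of cortical neurons 6 were higher and 6 lower. Of 12 microglial markers 6 were higher and 6 lower, and P2ry12, the purinergic receptor of resting microglia, had 4.61, 7.06 and 4.79 FPKM in PND and 10.7, 9.47 and 7.68 FPKM in CON (log2 fold change -0.76, 95% interval -1.25 to -0.27). Its groups did not overlap. Of 10 oligodendrocyte markers 2 were higher and 8 lower, with a median log2 fold change of -0.21, and Opalin, a myelin glycoprotein, had -0.78 (95% interval -1.46 to -0.11). Of 20 markers of hypothalamus, septum and thalamus 10 were tested, with 5 higher and 5 lower, 0 of them below an unadjusted p of 0.05 and a median log2 fold change of 0.07. The adjusted p of each gene named here was 0.9999 (limma, Benjamini-Hochberg).

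The other genes most like Agt differed less between the groups. Scaf8, an RNA polymerase II associated protein, had 24.0 ± 0.548 FPKM in PND against 21.4 ± 0.89 FPKM in CON (log2 fold change 0.16, 95% interval -0.06 to 0.39 in limma). Bccip had 13.1 ± 0.703 and 11.4 ± 0.646 FPKM (SD, n = 3 each, log2 fold change 0.20, 95% interval -0.06 to 0.47), and Gm39041, a gene model still to be experimentally checked, had 4.38 ± 0.649 and 2.93 ± 0.497 FPKM (log2 fold change 0.57, 95% interval 0.11 to 1.02). For Gm39041 the unadjusted p in limma was above 0.05 without PND replicate 3 and without CON replicate 1.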
